A study of Mus musculus with 6 samples.

Results

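Ankyrins and the ERM proteins (ezrin, radixin and moesin) are the adaptors that tie membrane proteins such as the cell adhesion molecule L1 to the cytoskeleton beneath the membrane. Their transcripts were followed in the cerebellum of L1cam knockout and wild type mice. The 6 genes looked for were Ank1, Ank2, Ank3, Ezr, Msn and Rdx, taken as every probe set of the array whose single gene symbol is one of these. This gave 5 of 8251 genes and 8 of 12422 probe sets: 3 probe sets for Ank1, 2 for Ank3 and 1 each for Ezr, Msn and Rdx. No probe set carried Ank2 as its only symbol, so ankyrin-B is not analysed here.

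Ankyrins bind the cytoplasmic tail of L1 and its relatives at a conserved tyrosine motif and hand the complex to spectrin, which lines the inner face of the membrane. Ankyrin-R, from Ank1, is best known as the spectrin anchor of the red blood cell and is also made by cerebellar neurons, and ankyrin-G, from Ank3, builds the axon initial segment, where L1 family proteins and sodium channels are held in place. ERM proteins fold open when activated, so that their FERM domain holds membrane partners, the L1 tail among them, while their other end holds actin filaments in filopodia, growth cones and microvilli.

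The knockout group was 3 male mice without L1CAM (-/Y), on the strain 129S2/SvPasCrlf, and the control group was 3 wild type siblings of that strain, whose sex the labels do not give. All were sampled at postnatal day 11, an age at which the granule cell layer is still growing and myelination has begun. How the L1cam allele was made, and which part of the gene it alters, is not given in the sources used here. One Affymetrix U74Av2 array was made from each whole cerebellum, so fewer cells of a type and less RNA per cell cannot be told apart. The values are RMA log2 values, on which a difference of 1 is a doubling, and since probes differ in brightness, a percentile of level across the array is given only as a rough sign of whether a probe set was bright or dim.

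Markers of the labelled tissue were present. Of 8 measured granule neuron markers, 8 lay above the array's median level, with Zic1, a transcription factor of granule neurons, at percentile 99.7. Of 8 Purkinje cell markers, 6 did, and the other 2, Gad2 and Pcp4, were dim. The L1cam probe set, a partial check of the labels, lay lower on all 3 knockout arrays (7.91 to 8.25) than on any wild type array (8.48 to 8.79). The knockout 1 array stood apart in its control probe sets. Its signal for Gapdh at the 3' end exceeded that at the 5' end by 0.67 log2, against -0.048 to 0.13 on the other 5 arrays, a gap that widens as RNA is shortened. Differences of the members, and of the partner probe sets named for the smallest p, are therefore also given without that array.

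None of the 8 ankyrin and ERM probe sets differed between genotypes past an adjusted p of 0.05 in limma, with Benjamini-Hochberg adjustment over all 12422 probe sets, where 0% were called. Both Ank3 probe sets and both brighter Ank1 probe sets had a lower knockout mean, by 0.22 to 0.26 log2, while Ezr, Msn and Rdx had a slightly higher one, by 0.060 to 0.092. At an unadjusted p under 0.05 there were 3 of the 8, all lower in the knockouts and all ankyrins, against 5.08% of all probe sets, or 2.62% in that direction. These 3 come from 2 genes, so they are not 3 separate findings. Without knockout 1 the count was 0 of 8, beside 482 of all 12422 probe sets in the same fit. Without wild type 3 it was 0 of 8, beside 395, and without knockout 3 it was 5 of 8, beside 613, where 631 stood with all arrays.

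**Figure D1:**
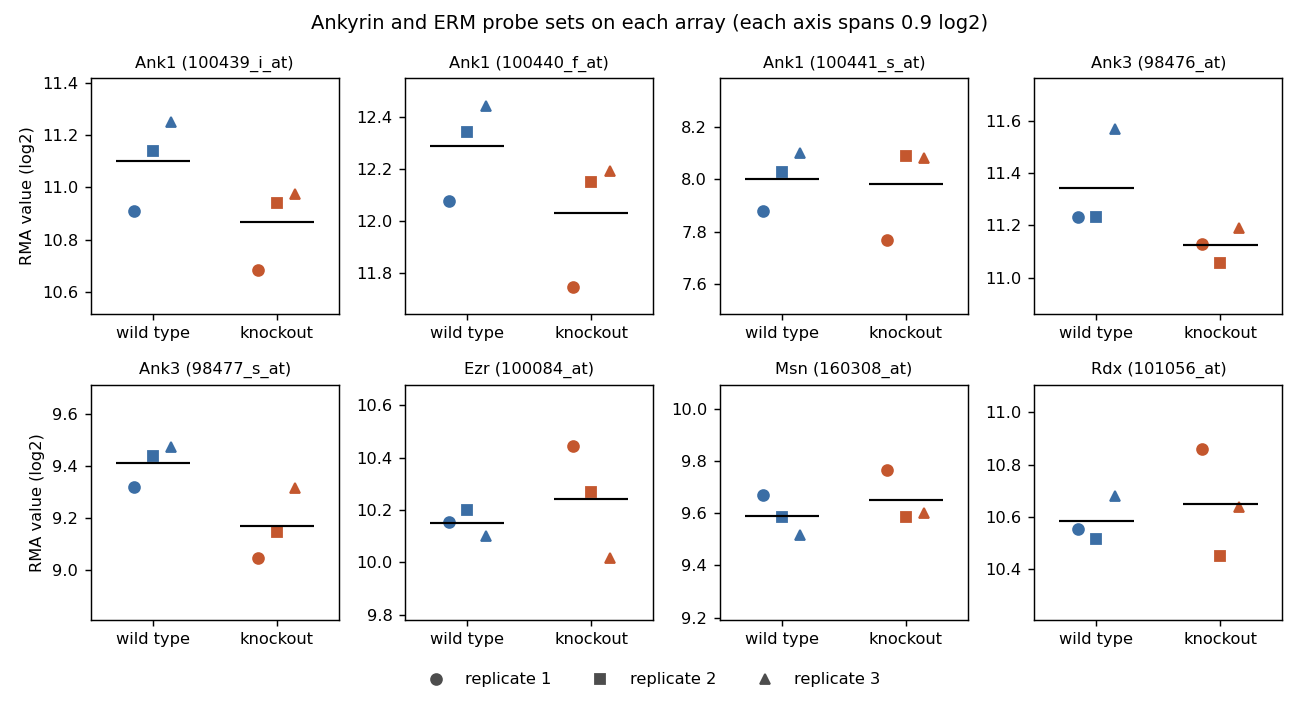
RMA log2 values of the 8 ankyrin and ERM probe sets on each of the 6 arrays, by genotype, with marker shape giving the replicate number and a horizontal line the mean of 3 arrays. On these values as deposited, the 2 Ank3 panels show knockout arrays below every wild type array. The Ezr, Msn and Rdx panels show knockout 1 as the highest point.

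Ank3, which encodes ankyrin-G, had the lowest unadjusted p-values of the members. Probe set 98476_at read 11.23, 11.23 and 11.57 on wild type arrays 1 to 3 and 11.13, 11.06 and 11.19 on knockout arrays 1 to 3. Every knockout value lay below every wild type value, and wild type 3 lay well above the other two. The means were 11.34 ± 0.19 (SD, n = 3) in wild type and 11.12 ± 0.066 (SD, n = 3) in the knockouts, a difference of -0.22 log2 (SE 0.093, 95% interval -0.43 to -0.013), or 1.16-fold lower. The limma p was 0.0396 unadjusted and 0.922 adjusted.

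The other Ank3 probe set, 98477_s_at, read 9.32, 9.44 and 9.47 in wild type and 9.05, 9.15 and 9.31 in the knockouts. Again the groups did not overlap, but the highest knockout array and the lowest wild type array were only 0.0031 log2 apart. The means were 9.41 ± 0.082 (SD, n = 3) and 9.17 ± 0.13 (SD, n = 3), a difference of -0.24 log2 (SE 0.080, 95% interval -0.42 to -0.061), or 1.18-fold lower. The limma p was 0.0133 unadjusted and 0.922 adjusted, and 1.36% of all probe sets had a smaller p. An exact permutation test on the values as deposited, 2-sided, gave p = 0.1 for each Ank3 probe set. With 3 arrays a group it cannot go lower.

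On the values as deposited, these 2 Ank3 probe sets were the only members whose groups did not overlap. That is 2 of 8, both lower, against 10.4% of all probe sets, or 6.63% in that direction. The margins, 0.041 and 0.0031 log2, lay between wild type 1 and knockout 3, the arrays with the highest and lowest medians, 8.94 and 8.87. Those medians lie further apart than either margin, so the non-overlap does not hold once arrays are set to a common median. The within-array gap between the 2 Ank3 probe sets ran from 1.80 to 2.09 over the 6 arrays. It was 1.93 ± 0.15 (SD, n = 3) log2 in wild type and 1.95 ± 0.11 (SD, n = 3) in the knockouts, and the exact permutation p for a change in that gap was 1, which with 3 arrays a group does not show that it stayed the same. Without knockout 1 the Ank3 differences were -0.22 and -0.18. Without wild type 3, the array with the highest Ank3 values, they were -0.11 and -0.21.

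Ank1, which encodes ankyrin-R, was read by 3 probe sets that did not give the same picture. By the array maker's suffixes, i marks a set with fewer usable probes, f a set whose probes can match a sequence family and s a set shared by similar transcripts. The f and s sets are therefore open to signal from related sequences. This also holds for Ank3 98477_s_at, while Ank3 98476_at carries no such letter. Probe set 100439_i_at read 10.91, 11.14 and 11.25 in wild type and 10.68, 10.94 and 10.98 in the knockouts. The groups overlapped, since 2 knockout arrays lay above wild type 1. Its difference was -0.23 log2 (SE 0.10, 95% interval -0.46 to -0.0051), with an unadjusted limma p of 0.0459 and an adjusted p of 0.922.

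The f probe set, 100440_f_at, followed the same order of arrays. It read 12.08, 12.34 and 12.44 in wild type and 11.75, 12.15 and 12.19 in the knockouts, again with overlap. The difference was -0.26 log2 (SE 0.12, 95% interval -0.54 to 0.021), the largest among the members, with an unadjusted limma p of 0.0661 and an adjusted p of 0.922. Within arrays the i and f probe sets lay 1.07 to 1.22 log2 apart, and for a change in that gap with genotype the exact permutation p was 1.

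The s probe set of Ank1, 100441_s_at, showed almost no difference. It read 7.88, 8.03 and 8.10 in wild type and 7.77, 8.09 and 8.08 in the knockouts, so that the arrays of both groups were mixed. The difference was -0.022 log2 (SE 0.096, 95% interval -0.24 to 0.19; limma adjusted p = 0.980), and it lay between 0.010 and 0.016 after quantile normalization, median centring or cyclic loess, so even its direction depended on scaling. This probe set was the dimmest of the members, at percentile 32 of mean level.

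The disagreement among the Ank1 probe sets was itself measured within each array. The gap between the i and s probe sets was 3.10 ± 0.059 (SD, n = 3) log2 in wild type and 2.89 ± 0.032 (SD, n = 3) in the knockouts, a change of -0.21. Between the f and s probe sets the gap was 4.29 ± 0.075 (SD, n = 3) in wild type and 4.05 ± 0.065 (SD, n = 3) in the knockouts, a change of -0.24. Each had an exact permutation p of 0.1, the smallest possible, or 0.2 after Benjamini-Hochberg adjustment over the 4 pairs of probe sets compared. Both gaps share the s probe set, and the i and f probe sets followed the same order of arrays, so they are not separate findings. Without knockout 1 these 2 changes were -0.22 and -0.20. The difference between probe sets thus held at about the same size without that array, whereas the Ank1 differences themselves did not: without knockout 1 they were -0.14, -0.12 and 0.084 for the i, f and s probe sets.

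Ezr encodes ezrin, which in brain is found mainly in astrocyte processes and in epithelia such as the choroid plexus. Its probe set, 100084_at, read 10.15, 10.20 and 10.10 in wild type and 10.44, 10.27 and 10.02 in the knockouts. The 3 wild type arrays lay close together, while the knockouts held both the highest and the lowest of the 6 values. The means were 10.15 ± 0.049 (SD, n = 3) and 10.24 ± 0.21 (SD, n = 3), a difference of 0.092 log2 (SE 0.097, 95% interval -0.13 to 0.31; limma adjusted p = 0.932).

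Rdx encodes radixin, which besides linking membrane to actin anchors a class of GABA-A receptors outside synapses. Probe set 101056_at read 10.55, 10.52 and 10.68 in wild type and 10.86, 10.45 and 10.64 in the knockouts. As for Ezr, the knockout arrays held both extremes. The difference was 0.068 log2 (SE 0.098, 95% interval -0.15 to 0.29; limma adjusted p = 0.945).

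Msn encodes moesin, the ERM protein of leukocytes and endothelium, and like L1cam it lies on the X chromosome. Probe set 160308_at read 9.67, 9.58 and 9.52 in wild type and 9.77, 9.59 and 9.60 in the knockouts. The groups overlapped, with knockout 1 highest. The difference was 0.060 log2 (SE 0.072, 95% interval -0.10 to 0.22; limma adjusted p = 0.937), the narrowest interval of the members. It spans from 0.933-fold to 1.17-fold of wild type, while the intervals for Ezr and Rdx reach from 0.917-fold to 1.24-fold and from 0.901-fold to 1.22-fold.

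The positive ERM differences rested on 1 array. Knockout 1 had the highest value of all 6 arrays for Ezr, Msn and Rdx, at 0.25, 0.15 and 0.24 log2 above their 6-array means. Without it the differences were -0.0084 for Ezr, 0.0021 for Msn and -0.037 for Rdx. With the Gapdh 3' to 5' gap as a covariate, which mainly marks the same array, they were -0.010, -0.013 and -0.037.

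Variation between arrays was wider than usual for the array's probe sets. The SD within genotype, pooled over both groups, had a median of 0.154 log2 over the 8 probe sets, against 0.0861 over all probe sets. It reached 0.218 for the f probe set of Ank1, at percentile 97.8, and was lowest for Msn, at 0.0892 and percentile 53.2. The ankyrins had their highest value on wild type 3 in 5 of 5 probe sets and their lowest on knockout 1 in 4 of 5, the exception being Ank3 98476_at, lowest on knockout 2. On knockout 1 the median deviation was -0.24 for the ankyrin probe sets and 0.24 for the ERM probe sets.

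Other values moved with these arrays. Over 9 of 11 listed oligodendrocyte and myelin markers, the median deviation from the 6-array mean was lowest on knockout 1, at -0.25, and highest on wild type 3, at 0.17. Their summed level ran from 14.42 to 14.75 log2 in the knockouts and from 14.61 to 14.88 in wild type, and 8 of the 9 lay above the array's median level, with Cnp the dim one. Wild type 3 also had the lowest Gapdh 3' to 5' gap, at -0.048, and knockout 1 the highest. With that gap as a covariate, Ank3 differed by -0.19 and -0.17, and Ank1 by -0.11, -0.086 and 0.11 at the i, f and s probe sets. Over 8 Purkinje cell markers the median deviation was -0.10 on both knockout 1 and wild type 1. It was 0.055 on wild type 3 and highest on wild type 2, at 0.091. Over 8 granule neuron markers the median deviation was lowest on knockout 2, at -0.067, and highest on knockout 3, at 0.046. The part of myelinating cells or of these neurons in the ankyrin differences was not tested.

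**Figure D2:**
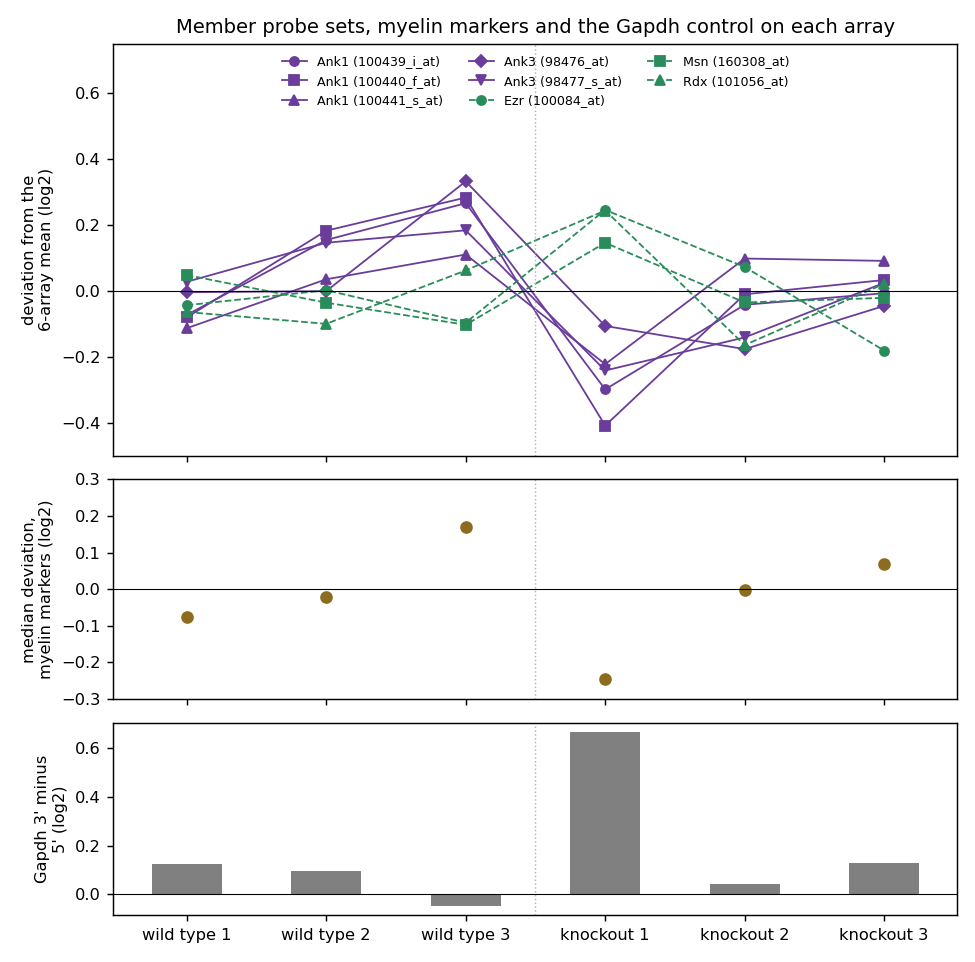
For each array, the deviation of every member probe set from its 6-array mean (top, log2, purple for ankyrins and green for ERM genes, lines only join the points of 1 probe set), the median deviation of 9 myelin markers (middle, log2) and the gap between the Gapdh control's 3' and 5' probe sets (bottom, log2). Knockout 1 is low for ankyrins, high for ERM genes, lowest for myelin markers at -0.25 and highest for the Gapdh gap at 0.67.

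Markers of cell types that carry these proteins outside neurons were read beside them. For red blood cells, the classical source of Ank1, 7 of 12 markers were measured, and their summed level ran from 15.15 to 15.32 log2 in the knockouts and from 14.91 to 15.09 in wild type. The globins Hba-a1 and Hbb-b2 make up most of that sum. The median over the 7 genes differed by -0.014, with 3 higher and 4 lower, and the arrays' median deviations overlapped, at -0.070 to 0.095 in the knockouts and -0.083 to 0.077 in wild type. The part of red blood cells in the Ank1 values was not tested. For microglia, which express Msn, all 11 were measured, and the sums were 12.36 to 12.46 in the knockouts and 12.38 to 12.52 in wild type. Endothelial markers, 10 of 11 measured, summed to 13.21 to 13.23 in the knockouts and 13.13 to 13.21 in wild type.

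Astrocyte and Bergmann glia markers, 9 of 11 measured, summed to 15.53 to 15.65 in the knockouts and 15.49 to 15.61 in wild type. Choroid plexus and ependymal markers, 6 of 10 measured, varied most, from 11.83 to 13.12 in the knockouts and from 11.86 to 13.10 in wild type. Their sum was lowest on knockout 3, at 11.83, where Ezr was lowest too, and nearly as low on wild type 1, at 11.86, where Ezr was not low. Ttr was the brightest of the 6, at percentile 93.5, with Foxj1 next at 68.5, so the sum weighs Ttr most. By median deviation over the 6 genes, knockout 3 was at -0.32 and wild type 1 at -0.094. Meningeal markers, 11 of 11 measured, ran from 15.18 to 15.33 in the knockouts and 15.10 to 15.30 in wild type. The part of these cells in the Ezr, Msn and Rdx values was not tested.

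**Figure D3:**
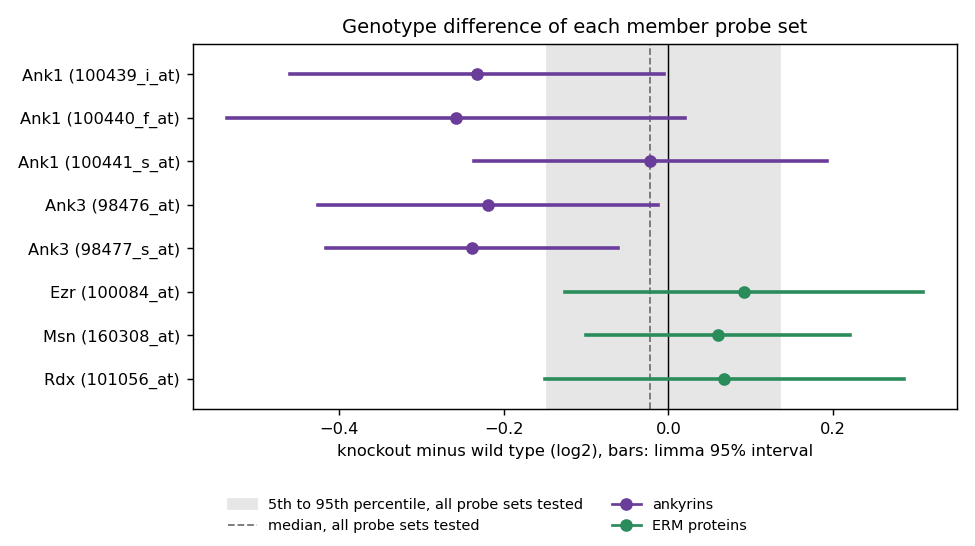
Knockout minus wild type difference (log2) of each member probe set with its 95% interval from limma, over 3 arrays a group. The grey band spans the 5th to 95th percentile of the differences of all 12422 probe sets, -0.15 to 0.14, and 4 ankyrin points lie to its left while all 3 ERM points lie inside it.

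As a group, the 8 probe sets had a median difference of -0.12 log2, with 3 higher and 5 lower, beside a median of -0.023 and 62.3% lower over all probe sets. That median depended on counting: the 5 ankyrin probe sets had a median of -0.23 and the 3 ERM probe sets one of 0.068. With 1 probe set per gene, the brightest, the median of the 5 genes was 0.060, with 3 higher and 2 lower. Differences larger than that of Ank1 100440_f_at, in either direction, were found for 1.42% of all probe sets, than that of Ank3 98477_s_at for 1.90%, and than that of Msn for 45.6%.

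**Figure D4:**
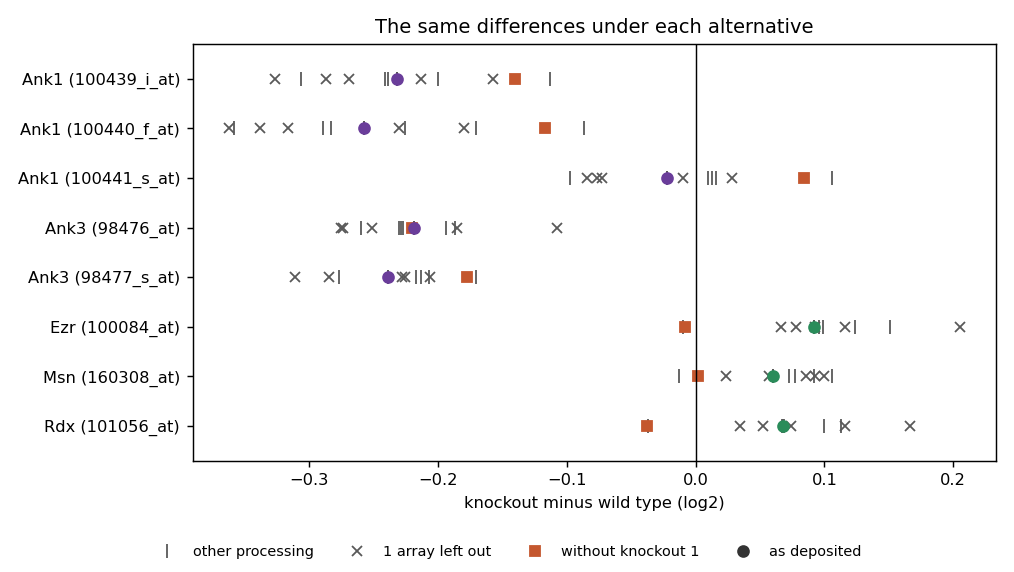
Knockout minus wild type difference (log2) of each member probe set as deposited (circles), under other processing (vertical ticks), with 1 array left out (crosses) and without knockout 1 (squares). Ank3 stays below 0 throughout, between -0.31 and -0.11, while the squares for Ezr, Msn and Rdx lie at -0.0084, 0.0021 and -0.037.

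Partners of the adaptors were read from 4 lists. Of 25 spectrin skeleton genes, the lattice that ankyrins hold to the membrane, 15 were measured by 19 probe sets. None passed in limma in either direction, 8 were higher and 11 lower, and their median was -0.029. Over all probe sets 62.3% were lower and the median was -0.023. The smallest unadjusted p-values were those of Epb41l2, a protein that joins spectrin to actin, at 0.12 (SE 0.063), Tpm4, a tropomyosin, at 0.16 (SE 0.095), and Mpp1, a membrane scaffold, at -0.11 (SE 0.071). Without knockout 1 these differences were 0.15, 0.084 and -0.15. Sptan1 and Sptbn1, the main neuronal spectrin chains, differed by -0.20 (SE 0.13) and -0.060 (SE 0.076); they were named for their role and after their values were seen.

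Among membrane proteins that ankyrins bind, 17 of 29 genes were measured by 27 probe sets. Their differences had a median of -0.045, with 8 higher and 19 lower, none past the threshold and 3 at an unadjusted p under 0.05, all lower, beside 62.3% lower and 5.08% under that p over all probe sets. L1cam, the targeted gene, accounts for one of these, at -0.60 (SE 0.10), and at -0.70 without knockout 1. With L1cam left out, the other 26 probe sets had a median of -0.045, with 8 higher, 18 lower and 2 at an unadjusted p under 0.05. Scn8a, the sodium channel that ankyrin-G holds at the axon initial segment, read 8.38, 8.41 and 8.54 in wild type and 8.23, 8.33 and 8.30 in the knockouts. All its knockout values lay below the wild type ones, with a difference of -0.15 (SE 0.066, limma unadjusted p = 0.0420, adjusted p = 0.922). Without knockout 1 that difference was -0.13. The second Scn8a probe set differed by 0.045 but was dim, at percentile 3.50 of mean level. The L1 homolog Chl1 differed by -0.18 (SE 0.081), or by -0.11 without knockout 1. At a much dimmer probe set Chl1 differed by -0.091.

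Of 35 ERM partners and regulators, 26 were measured by 38 probe sets, with 17 higher, 21 lower and a median difference of -0.013. None passed, and 1 of the 38 had an unadjusted p under 0.05, beside 5.08% under that p and 62.3% lower over all probe sets. That 1 was Rhoa, the GTPase whose kinases phosphorylate ERM proteins. Probe set 101113_at read 12.12, 11.93 and 11.93 in wild type and 12.29, 12.17 and 12.09 in the knockouts, with only wild type 1 reaching into the knockout range. It differed by 0.19 (SE 0.076, limma adjusted p = 0.922), or by 0.14 without knockout 1. The other Rhoa probe sets differed by 0.093 and -0.062. Nf2, which encodes merlin, the relative of the ERM proteins, differed by 0.24 (SE 0.11), with knockout 1 highest at 10.65, and by 0.11 without that array. Spn, a sialoglycoprotein of leukocytes that binds ERM proteins, differed by -0.14 (SE 0.077), and by -0.17 without knockout 1.

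Other proteins with a FERM domain, the fold by which ERM proteins bind membrane partners, were measured for 22 of 37 genes by 28 probe sets. None passed or had an unadjusted p under 0.05, 7 were higher and 21 lower, and the median was -0.035. Over all probe sets 5.08% were under that p and 62.3% were lower. The smallest p-values were those of Nf2 and Epb41l2, already given, and of Epb41l4b, at 0.15 (SE 0.067), or 0.19 without knockout 1. The other Epb41l4b probe set differed by -0.13. After median centring, which moved the median of all probe sets from -0.023 to 0.0089, the share of higher probe sets in this list went from 25% to 46.4%.

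**Figure D5:**
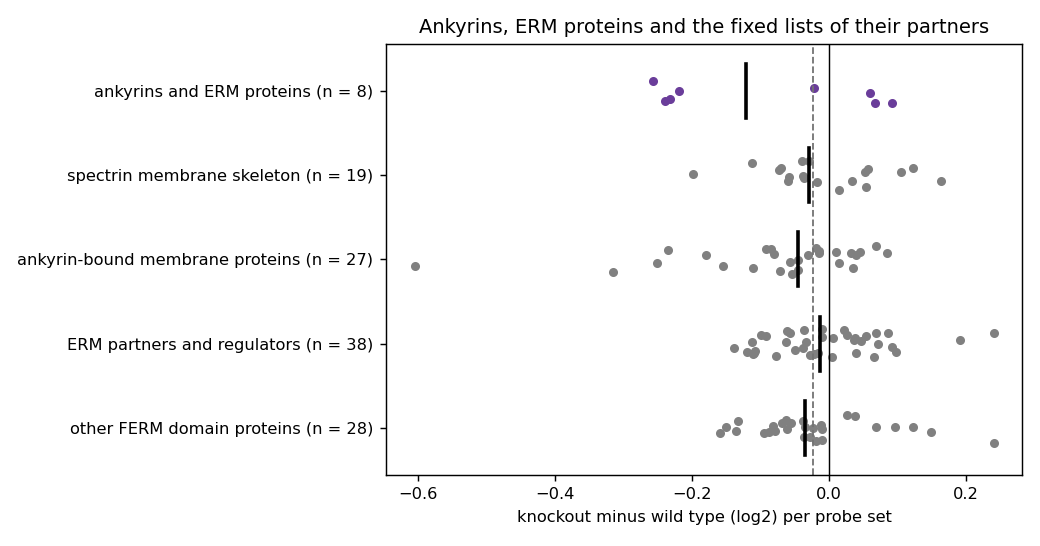
Knockout minus wild type difference (log2) of each probe set of the ankyrins and ERM proteins and of the 4 partner lists, with the list median as a black bar, the median of all probe sets (-0.023) as a dashed line and vertical scatter only to separate points. List medians lie between -0.045 and -0.013 for the partners and at -0.12 for the 8 member probe sets, and the point at -0.60 is L1cam.

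For each gene's brightest probe set, the genes with the most similar profile over the 6 arrays were found by the root mean square difference of values centred on each gene's mean, among 10825 probe sets with 1 symbol. For Ank1 these were Snw1, a splicing factor, at 0.037 log2 and Rnf112, a brain ubiquitin ligase, at 0.046, where the Ank1 profile itself has a root mean square of 0.22. For Ank3 they were Bod1l at 0.036 and the ubiquitin ligase Ube3a at 0.042, against 0.16, and both shared the high value on wild type 3. For Ezr they were elastin (Eln) at 0.021 and Pole3 at 0.035, against 0.14. For Msn they were Aurkb and Cdc25c, regulators of mitosis, at 0.019 and 0.020, against 0.079, and for Rdx Brd7 at 0.035 and Psme4 at 0.039, against 0.13. These likenesses are a description over 6 arrays, with no test.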

How the data were processed

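The authors deposited log2 values from RMA, which the submitters' processing notes name without version or settings, and no genome build is named in the labels. Of 12488 probe sets in the table, 66 controls were left out. Gene symbols came from the array's annotation table. Each array was taken as 1 mouse, and nothing beyond the design text shows that samples were independent. Arrays carry no read depth, and their number limits precision: the 95% interval reached 0.158 log2 to either side at the median.

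Genotype was fitted with limma 3.58.1 in R 4.3.3 (lmFit, eBayes, 2-sided, Benjamini-Hochberg over 12422 probe sets, threshold 0.05), a procedure tested on simulated data. Single values were also tested by exact permutation over 20 splits of the arrays. Lists are described by counts and medians only, and a summed level is the log2 of summed linear values of 1 probe set per gene. Named genes were the members, L1cam, the 3 probe sets of smallest p in each of 4 partner lists, and the 2 nearest profiles per member. Sptan1, Sptbn1 and the marker genes named were added outside that rule, after their values were seen. Members and lists were chosen with earlier results of these data known. Alternatives covered normalization, filtering, variance, array weights, a replicate block, the Gapdh gap, single arrays left out and probe set choice. No sequences are shown because the data bear on no promoter.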

Additional observations from a re-analysis of the deposited data

How the results depend on the processing

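No member passed an adjusted p of 0.05 in limma under any setting run (lowest adjusted p 0.424). Over all probe sets the count was 0 except without knockout 3, where it was 1, so the range over arrays left out was 0 to 1. At an unadjusted p under 0.05, 631 probe sets stood as deposited, 48.3% of them higher, and 675 after median centring, 79.1% of them higher. Differences of both Ank3 probe sets and of Ank1 100439_i_at and 100440_f_at stayed negative in every setting run. With arrays left out they ran from -0.28 to -0.11 and from -0.31 to -0.18 for Ank3 98476_at and 98477_s_at, and from -0.33 to -0.14 and from -0.36 to -0.12 for Ank1.

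Some directions turned. Ank1 100441_s_at was 0.016 after quantile normalization, 0.010 after median centring, 0.013 after cyclic loess and 0.11 with the Gapdh covariate, and ran from -0.084 to 0.084 with arrays left out. With the Gapdh covariate Ezr was -0.010, Msn -0.013 and Rdx -0.037. With arrays left out Ezr ran from -0.0084 to 0.21 and Rdx from -0.037 to 0.17. The gap between the Ank3 probe sets changed by -0.014 after quantile normalization, and from -0.049 to 0.099 with arrays left out. That between the Ank1 i and f probe sets ran from -0.023 to 0.052.

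The number of members at an unadjusted p under 0.05 was 3 as deposited, 1 after median centring, 0 with the Gapdh covariate, 1 of 5 with either form of 1 value per gene, 1 of 4 without letter-suffixed sets (here i, f and s), and 0 to 5 with arrays left out. Counts over all probe sets are given here for only some of these settings. For the others, the member count does not show whether the members or the whole fit moved. Their median was -0.22 with the filter on dim probe sets, 0.060 with either form of 1 value per gene and 0.064 without letter-suffixed sets. These settings keep different probe sets or, in the form that takes the mean, average those of a gene. With arrays left out the members' median ran from -0.18 to -0.042. The share higher was 60.0% with either form of 1 value per gene, 75% without letter-suffixed sets and 12.5% with the Gapdh covariate.

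Among partner lists, the spectrin median was 0.0026 after median centring and 0.0067 with array weights, and ran from -0.021 to 0.015 with arrays left out. The ankyrin-bound median was -0.014 after median centring, ran from -0.056 to -0.019, and 17.6% of genes were higher with 1 probe set per gene. The ERM partner median was 0.019 after median centring and 0.013 with the filter, and ran from -0.028 to 0.0075. The FERM median was -0.0037 after median centring and ran from -0.059 to -0.017. Its share higher was 42.9% after quantile normalization, 46.4% after median centring, 39.3% after cyclic loess and 46.4% with the Gapdh covariate, and ran from 25% to 42.9%. The causes were not tested.

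Deviations of same-numbered arrays from their group means correlated at 0.16, -0.32 and 0.17, and those of differently numbered arrays at -0.40 to 0.24. These values show no clear pairing by replicate number, but with 3 arrays a group they cannot exclude one. With the replicate number as a block 0 probe sets passed, 634 had an unadjusted p under 0.05, and 4 of 8 members did; the block changed no call.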
